A study of Mus musculus with 6 samples.

Results

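The 10 genes described here encode the sensors, transcription factors and chaperones of the response to endoplasmic reticulum (ER) stress. They were chosen by symbol as the rows *Hspa5*, *Hsp90b1*, *Dnajb9*, *Manf*, *Eif2ak3*, *Ern1*, *Atf6*, *Xbp1*, *Atf4* and *Ddit3* of the deposited count table, and all 10 were found among its 46078 genes. Their levels were compared between TSA-treated and control cones of the rd1TN-XL mouse. In this mouse the rods die from a defect of the rod gene *Pde6b*, and the human red opsin promoter (HR2.1) drives the fluorescent calcium sensor TN-XL in cones. Retinal explants with the pigment epithelium entered culture at PN19 and stayed there for 7 days, either with 10 nM trichostatin A (TSA), an inhibitor of histone deacetylases, or with DMSO, its solvent. TN-XL-positive cones were then sorted, and each group had 3 RNA-seq libraries, each from 2000 to 5000 cells pooled over at least 2 explants. Only part of that lysed input went into cDNA synthesis, so a library sampled less RNA than those cells held. Sample titles give a harvest at PN26 throughout. A time label gives PN26, PN27 and PN28 for DMSO replicates 1 to 3 and PN29, PN30 and PN31 for TSA replicates 1 to 3. By that label replicates of a group differ in age too, and age and treatment cannot be told apart.

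Proteins that enter the ER are folded there by chaperones, and an excess of unfolded protein starts the unfolded protein response. It has 3 sensors in the ER membrane: PERK (*Eif2ak3*), IRE1α (*Ern1*) and ATF6 (*Atf6*). PERK phosphorylates the initiation factor eIF2α, which slows translation in general and favours translation of ATF4, a transcription factor that in turn induces CHOP (*Ddit3*). IRE1α splices the mRNA of *Xbp1*, and ATF6 is cut in the Golgi to release a transcription factor. XBP1 and ATF6 induce ER chaperones, above all BiP (*Hspa5*). Photoreceptors make large amounts of opsin on the ER, and ER stress is a known part of several inherited retinal degenerations. Because much of this pathway works through splicing, cleavage and translation, gene counts show its transcripts but not the activity of its sensors, and do not separate spliced from unspliced *Xbp1*.

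Total counts per library were 12088800 to 12734097 in TSA-treated and 9135389 to 13650676 in control cones, and 6974 to 10795 against 6690 to 8837 genes exceeded 1 CPM (counts per 1000000 counts of the library). Libraries of 1 group differed widely, with a common dispersion of 2.16, a coefficient of variation of 147%. All 15 listed cone markers were measured, with 3.54 to 5.67% of the counts in TSA-treated and 3.76 to 6.14% in control cones, and rod markers held 1.16 to 1.74% and 1.69 to 2.39%. TSA replicate 1 stood apart in markers of Müller glia and microglia. Its Müller glia markers held 1.499% of the counts, against 0.0764 to 0.134% in the other 5 libraries, and its microglia markers 0.325%, against 0.00837 to 0.0551%. Of 9621 genes tested with edgeR, 0 passed an adjusted p of 0.05 and 993 had an unadjusted p of 0.05 or less, 772 higher and 221 lower in TSA-treated cones.

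All 10 ER stress genes passed the filter on low counts, *Eif2ak3* through the DMSO libraries alone, the group where it was high. None had an adjusted p under 0.05 from edgeR. At an unadjusted p of 0.05 or less, *Hspa5* was higher and *Eif2ak3* lower in TSA-treated cones, 2 of 10, where 10.3% of all genes tested reached that p in either direction (8.02% higher and 2.3% lower). The CPM of the groups did not overlap for 3 of the 10, *Hspa5* above and *Manf* and *Eif2ak3* below in TSA-treated cones, against 10.1% of all genes tested. Fold changes were above 0 for 5 of the genes and below 0 for 5, with a median log2 fold change of 0.04, and the median over all genes tested was 0.02.

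**Figure D1:**
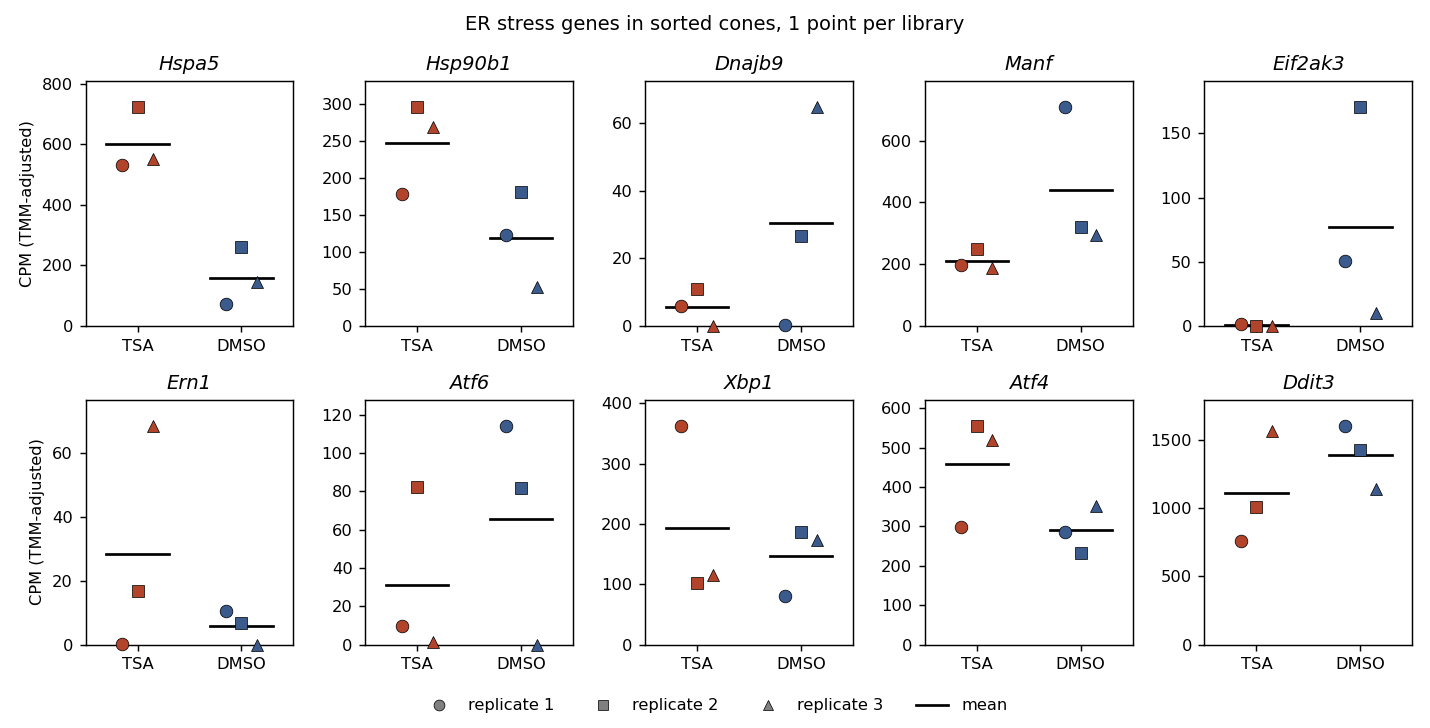
Level of each of the 10 genes in CPM (linear axis from 0, scale set per gene) in the 3 TSA-treated and 3 DMSO libraries, with the mean as a bar. *Hspa5* ranges from 532 to 722 CPM in TSA-treated cones and from 73.1 to 259 CPM in control cones, while *Eif2ak3* is at or near 0 in every TSA library.

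The chaperones were examined first. *Hspa5* encodes BiP, an ATP-driven chaperone that also holds the sensors inactive while it is bound to them. It had 7545, 9413 and 6130 counts in TSA replicates 1 to 3, against 791, 2726 and 1629 in DMSO replicates 1 to 3. Every TSA library thus lay above every control, and relative to their mean the controls spread more than the TSA libraries. *Hspa5* averaged 602 ± 104 CPM in TSA-treated and 160 ± 93.9 CPM in control cones (SD, n = 3 each), with a log2 fold change of 1.92 (standard error 0.59). The unadjusted p was 0.0128 and the adjusted p 0.405 from edgeR, and the two-sided exact permutation test over libraries gave p = 0.1, the smallest that 3 against 3 allows. TSA replicate 1, the library rich in glial markers, had the lowest *Hspa5* of its group (532 CPM), close to TSA replicate 3 (551 CPM). Without TSA replicate 1 the log2 fold change was 2.04. The part of glial cells in the *Hspa5* level was not tested. In bulk libraries, fewer cells with a transcript and less of it per cell cannot be told apart.

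*Hsp90b1* encodes GRP94, the HSP90 of the ER lumen. It had 2527, 3851 and 2988 counts with TSA, against 1336, 1906 and 584 with DMSO. By CPM the groups just overlapped, since TSA replicate 1 (178 CPM) lay below DMSO replicate 2 (181 CPM). The means were 247 ± 61.3 CPM in TSA-treated and 119 ± 64.6 CPM in control cones (SD, n = 3 each), and the log2 fold change of 1.06 (standard error 0.70) had an unadjusted p of 0.174. The cDNA kit (SMART-Seq) does not mark strand, and exons of other annotated genes overlap those of *Hsp90b1*, by 632 bases summed over the genes. Some of its reads may thus have been assigned elsewhere or dropped.

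*Hspa5* and *Hsp90b1* share a promoter sequence that was read without the counts. It is named for the response that the 10 genes belong to, so finding it in some of them is no independent result. The ER stress response element (ERSE), bound by NF-Y at its CCAAT end and by ATF6 or XBP1 at its CCACG end, was searched as CCAAT, then 9 bases of any kind, then CCACG, on both strands, from 250 bases before to 50 bases after each RefSeq start (GRCm38.p6). Such windows were matched for 8 of the 10 genes, not for *Manf* and *Atf6*. The element was found in 2 of the 8, once in *Hspa5* (chr2:34772025-34772043, 65 to 47 bases before the RefSeq start) and at 2 places in *Hsp90b1*, on opposite strands. GENCODE starts *Hspa5* farther upstream, at chr2:34771970, and by that annotation the site lies within the gene. Over all genes with a window it was found in 37 of 27025 (0.137%). The 250 bases before each start are shown because these are the only windows of the 10 genes that hold the element, which is in capitals.
Hspa5 promoter, chr2:34771840-34772089, plus strand: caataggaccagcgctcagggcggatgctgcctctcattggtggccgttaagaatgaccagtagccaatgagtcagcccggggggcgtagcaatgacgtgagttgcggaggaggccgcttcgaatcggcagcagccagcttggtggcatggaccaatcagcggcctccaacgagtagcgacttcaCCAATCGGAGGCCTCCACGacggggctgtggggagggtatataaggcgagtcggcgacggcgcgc
Hsp90b1 promoter, chr10:86705445-86705694, minus strand: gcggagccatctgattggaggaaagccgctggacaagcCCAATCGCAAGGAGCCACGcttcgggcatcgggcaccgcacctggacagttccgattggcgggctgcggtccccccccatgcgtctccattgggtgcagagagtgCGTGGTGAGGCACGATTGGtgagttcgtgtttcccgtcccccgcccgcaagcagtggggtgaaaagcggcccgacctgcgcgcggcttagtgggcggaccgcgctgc
A shorter relative, ATTGG and CCACG with 1 base between them (ERSE-II), the XBP1 motif TGACGTGG, the ATF4 composite site TGATGNAAN and the cAMP response element TGACGTCA were each in 0 of the 8 windows. The CCAAT box alone, part of the first 2 elements, was in 6 of 8, against 41.1% of all genes with a window. A match describes the letters only.

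*Manf*, a small secreted protein of the ER that is a partner of BiP and a survival factor for neurons, was on the other side. It had 2796, 3237 and 2098 counts with TSA, against 7668, 3387 and 3292 with DMSO. By CPM each TSA library lay below each control, and DMSO replicate 1 stood far above the other controls (708 against 322 and 295 CPM). *Manf* averaged 211 ± 32.2 CPM in TSA-treated and 442 ± 231 CPM in control cones (SD, n = 3 each). The log2 fold change of -1.06 (standard error 0.55) had an unadjusted p of 0.0928, and without DMSO replicate 1 it was -0.61 with an unadjusted p of 0.301.

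*Dnajb9* encodes ERdj4, a J-domain co-chaperone that recruits BiP to IRE1α. It was the least regular of the chaperones, with 84, 143 and 1 counts with TSA, against 4, 281 and 721 with DMSO. Each group thus held 1 library with hardly any reads, and the groups overlapped. The log2 fold change of -2.43 (standard error 2.25) was -1.41 without DMSO replicate 3. The 4 chaperones split evenly by the sign of their fold changes, with the HSP70 and HSP90 of the ER above 0 and *Manf* and *Dnajb9* below.

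Ratios of counts within a library do not depend on scaling between libraries, and those given here were chosen with the levels known, as a description. For every 100 counts of *Manf* there were 270, 291 and 292 counts of *Hspa5* in the TSA libraries, against 10.3, 80.5 and 49.5 with DMSO. The TSA libraries were thus nearly alike in this ratio. That the groups lie apart in it was fixed in advance, since by CPM *Hspa5* lay above and *Manf* below in every TSA library. For every 100 counts of *Ddit3* there were 69.9, 71.5 and 35.2 counts of *Hspa5* in the TSA libraries, against 4.56, 18.2 and 12.8 with DMSO. This was not particular to *Hspa5*. Per 100 counts of *Ddit3*, *Hsp90b1* had 17.2 to 29.2 counts with TSA against 4.59 to 12.7 with DMSO, and *Atf4* 33.1 to 55.0 against 16.2 to 30.9. Against *Hsp90b1* the groups overlapped, since DMSO replicate 3 had 279 counts of *Hspa5* per 100, within the 205 to 299 of the TSA libraries.

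**Figure D2:**
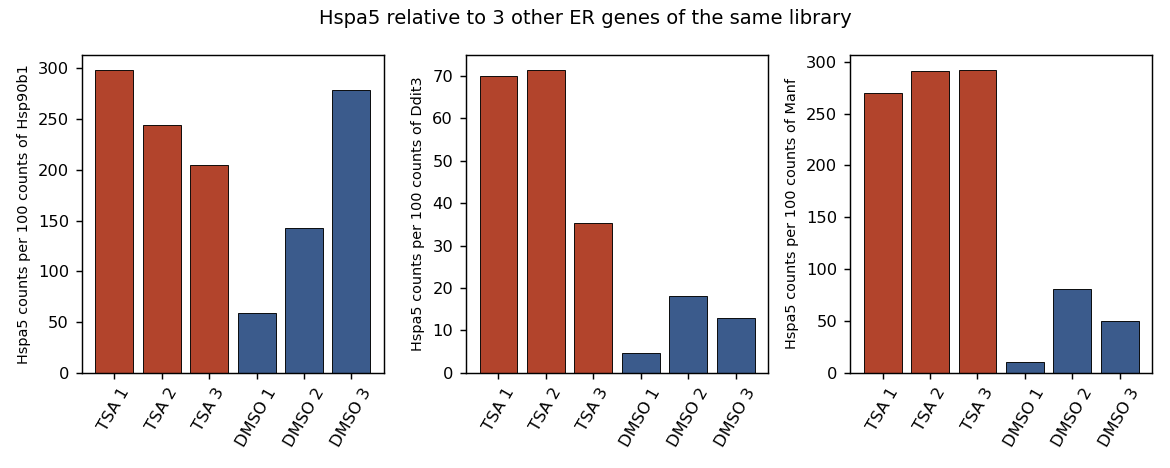
Counts of *Hspa5* per 100 counts of *Hsp90b1*, *Ddit3* or *Manf* in the same library (bars from 0, 1 per library, TSA then DMSO). Against *Ddit3* and *Manf* the 3 TSA libraries stand above the 3 controls, and against *Hsp90b1* DMSO replicate 3 reaches the TSA range. For *Manf* this follows from the CPM ranges of the genes, which lie apart in opposite directions.

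Among the sensors, the largest difference was in *Eif2ak3*, the kinase PERK. It had 27, 0 and 0 counts with TSA, against 546, 1790 and 113 with DMSO. All controls lay above all TSA libraries, though the controls themselves differed by more than 10-fold. The filter admitted *Eif2ak3* through this higher group alone, so its test is not independent of the filter. A count of 0 in TSA replicates 2 and 3 allows up to 0.230 and 0.270 CPM, by 3 counts of the adjusted total, and covers counting error only. *Eif2ak3* averaged 0.635 ± 1.10 CPM in TSA-treated and 77.0 ± 83.3 CPM in control cones (SD, n = 3 each), and pooled over libraries the control level was 107-fold that of TSA, or 42.6-fold without DMSO replicate 2. The log2 fold change of -6.89 (standard error 2.75) had an unadjusted p of 0.0381 and an adjusted p of 0.434 from edgeR, and the exact permutation test gave p = 0.1. DESeq2 gave it an adjusted p of 0.0205, in a comparison where 9.53% of the 8984 genes with an adjusted p were called (2.23% lower). The log2 fold change by edgeR was -6.25 without TSA replicate 2 (unadjusted p = 0.0737), -6.37 without TSA replicate 3 (0.0683) and -5.58 without DMSO replicate 2 (0.0965). The difference thus stayed large where that p was lost. The 27 reads all came from TSA replicate 1, the library with most glial marker reads, and their source was not tested. Without that library the TSA libraries had no read. Taking 3 counts over the 2 libraries as the floor, the level with TSA was then lower by at least 607-fold. This bound was 241-fold when DMSO replicate 2 was left out too, and it covers counting error only. It does not cover differences between libraries of 1 group, where *Atf6* had 1237, 862 and 0 counts with DMSO.

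The other sensors were too irregular within groups for a comparison. *Ern1*, the kinase and RNase IRE1α, had 4, 218 and 762 counts with TSA, against 114, 71 and 0 with DMSO. Most of its TSA reads were in replicate 3, and the log2 fold change of 2.30 (standard error 2.48) was 0.45 without that library. *Atf6* had 137, 1072 and 15 counts with TSA, against 1237, 862 and 0 with DMSO. Its range in either group covered most of the range of the other, and the log2 fold change of -1.07 (standard error 2.30) was -3.49 without TSA replicate 2. The count of 0 in DMSO replicate 3 allows up to 0.269 CPM for either gene. Of the 10 genes, *Eif2ak3*, *Ern1* and *Atf6* were the 3 with a 0 in at least 1 library, where 37.9% of all genes tested had one.

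The transcription factors overlapped between the groups. *Ddit3* encodes CHOP, a factor that stress induces and that can promote cell death when ER stress lasts. It was the most abundant of the 10 in both groups, with 10789, 13172 and 17402 counts with TSA, against 17364, 15007 and 12716 with DMSO. TSA replicate 3 was among the highest libraries and TSA replicates 1 and 2 were the lowest by CPM. *Ddit3* averaged 1112 ± 412 CPM in TSA-treated and 1390 ± 234 CPM in control cones (SD, n = 3 each), and its log2 fold change of -0.32 (standard error 0.38) had an unadjusted p of 0.428. Exonic overlap with other annotated entries, among them a further entry named *Ddit3*, came to 186 bases summed over the entries.

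*Atf4* had 4243, 7242 and 5759 counts with TSA, against 3091, 2435 and 3926 with DMSO. The highest control (DMSO replicate 3, 352 CPM) lay above TSA replicate 1 (299 CPM) and below the other TSA libraries (555 and 518 CPM). *Atf4* averaged 457 ± 138 CPM in TSA-treated and 290 ± 60.2 CPM in control cones (SD, n = 3 each), and its log2 fold change of 0.66 (standard error 0.48) had an unadjusted p of 0.213. ATF4 protein is set mainly by translation, which these counts do not show.

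*Xbp1* had 5140, 1320 and 1281 counts with TSA, against 870, 1955 and 1938 with DMSO. A single library, TSA replicate 1, was high. Its log2 fold change of 0.40 (standard error 0.79) turned to -0.39 (standard error 0.93) without that library, the same one in which Müller glia and microglia markers were high. The part of those cells in the *Xbp1* level was not tested.

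**Figure D3:**
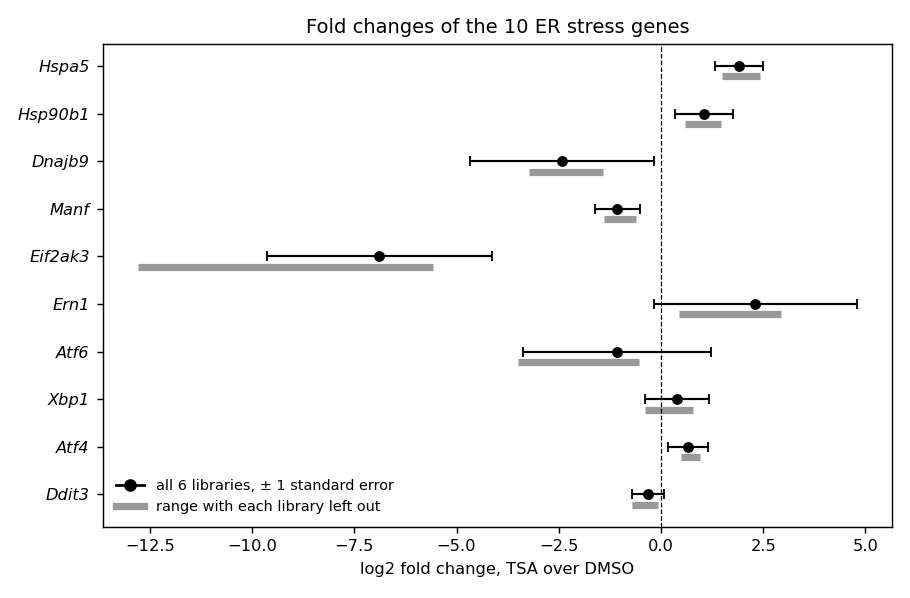
Log2 fold change (TSA over DMSO) of the 10 genes from edgeR with all 6 libraries (points, bars of 1 standard error), and the range of the fold change with each library left out in turn (grey). *Hspa5* keeps a log2 fold change of 1.49 to 2.42, while the range of *Xbp1* spans 0; the low end for *Eif2ak3*, without TSA replicate 1, has no TSA read behind it and depends on the prior count.

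The spread within groups differed between the members. The SD of log2(CPM + 1) within groups was 0.40 for *Atf4*, 0.41 for *Ddit3*, 0.51 for *Manf*, 0.66 for *Hspa5*, 0.70 for *Hsp90b1* and 0.85 for *Xbp1*. All but that of *Xbp1* lay under the median of 0.80 for the 1671 genes tested that averaged at least 100 CPM. It was 1.53 for *Eif2ak3*, 2.44 for *Dnajb9*, 2.46 for *Ern1* and 3.26 for *Atf6*, against a median of 1.75 over all genes tested.

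Levels of different genes were compared per kilobase of annotated exon. In TSA-treated cones *Ddit3* came first with 649 ± 240 CPM per kb, followed by *Atf4* (194 ± 58.6), *Hspa5* (142 ± 24.7), *Hsp90b1* (61.4 ± 15.2), *Manf* (59.97 ± 9.13) and *Xbp1* (59.4 ± 45.3; SD, n = 3). The next were *Ern1* with 3.49, *Atf6* with 3.37, *Dnajb9* with 2.22 and *Eif2ak3* with 0.105 CPM per kb. In control cones the order was *Ddit3* with 812 ± 137 CPM per kb, then *Manf* (125 ± 65.6), *Atf4* (122.8 ± 25.5), *Xbp1* (45.2 ± 17.8), *Hspa5* (37.7 ± 22.2) and *Hsp90b1* (29.5 ± 16.02; SD, n = 3), and then *Eif2ak3* with 12.8, *Dnajb9* with 11.99, *Atf6* with 7.09 and *Ern1* with 0.705 CPM per kb. *Hspa5* was thus the third of the 10 in TSA-treated and the fifth in control cones. Ranges of neighbours in these orders overlapped, except between *Ddit3* and the next gene in both groups, between *Hspa5* and *Hsp90b1* and between *Xbp1* and *Ern1* in TSA-treated cones, and between *Atf4* and *Xbp1* in control cones.

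The wider pathway was read from 5 lists of 124 genes, of which 103 were tested. At the unadjusted p used above, 4 of these were higher and 2 lower, which is 5.83% of them against 10.3% of all genes, and 0 passed an adjusted p of 0.05 from edgeR. Fold changes were above 0 for 56 and below 0 for 47, and the median log2 fold change was 0.16. Ranges of CPM lay apart for 14 of them, with TSA above in 11 and below in 3, where the shares over all genes tested were 6.37% and 3.71%. Of the genes at the unadjusted p, *Pdia4*, *Atf6b* and *Ddost* passed the filter through the TSA libraries alone. *Dnajb12* and *Eif2ak2* passed through DMSO alone, so each of these entered by the group where it was high. When 3 libraries had to exceed 1 CPM, 2 listed genes were at that p.

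Of 19 tested ER chaperones and folding enzymes, 11 had a fold change above 0 and 8 below, with a median of 0.54 on the log2 scale, and 1 was higher at the unadjusted p. This was *Pdia4*, a protein disulfide isomerase, with 1284, 136 and 2 counts with TSA, against 0, 3 and 1 with DMSO. Most of its reads came from TSA replicate 1 and the groups overlapped. The 3 most abundant of the list were the prolyl isomerase *Fkbp2* (496 ± 303 CPM in TSA-treated and 526 ± 33.9 CPM in control cones), the lectin chaperone *Canx* (161 ± 99.9 and 105 ± 24.5 CPM) and the disulfide isomerase *Pdia6* (162 ± 108 and 101 ± 68.6 CPM; SD, n = 3 each). The groups overlapped for each of these.

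Of 19 tested genes of ER-associated degradation, which returns misfolded proteins to the cytosol for the proteasome, 6 had a fold change above 0 and 13 below, with a median of -0.35, and 1 was lower at the unadjusted p. This was the J-protein *Dnajb12*, with 4, 0 and 1 counts with TSA, against 1, 25 and 191 with DMSO. *Herpud1*, a stress-induced part of the degradation complex, had 5967, 10184 and 4705 counts with TSA, against 1274, 4618 and 12861 with DMSO. The DMSO libraries alone spanned the TSA range. The selenoproteins *Selenok* (677 ± 267 CPM in TSA-treated and 860 ± 320 CPM in control cones) and *Selenos* (212 ± 117 and 222 ± 125 CPM; SD, n = 3 each) also overlapped. Ranges lay apart for *Ube2j2*, a ubiquitin-conjugating enzyme (29.8 ± 10.6 CPM in TSA-treated and 2.30 ± 1.92 CPM in control cones), and for *Derl1*, a part of the export channel (90.5 ± 18.4 and 172 ± 72.2 CPM; SD, n = 3 each). This is 1 of 19 above and 1 below with TSA, where 6.37% and 3.71% of all genes tested did so.

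Of 19 tested regulators and partners of the sensors, 12 had a fold change above 0 and 7 below (median 0.36), and 1 was higher and 1 lower at the unadjusted p. *Atf6b*, the close relative of *Atf6*, had 138, 20 and 2 counts with TSA, against 0, 1 and 0 with DMSO, a pooled ratio of 136. Its exact 95% interval of 24.0 to 5389 covers counting error only, and without TSA replicate 1, the library rich in glial markers, the ratio was 29.6. *Eif2ak2*, the eIF2α kinase PKR, had 0 counts in every TSA library, against 641, 236 and 0 with DMSO, and pooled over libraries its level with TSA was lower by at least 345-fold, taking 3 counts over the group as the floor. The groups of *Eif2ak2* overlapped at 0, and without DMSO replicate 1 the bound was 139-fold. Like that of *Eif2ak3*, the bound covers counting error only. The other kinases of eIF2α on the list overlapped as well, *Eif2ak4* with 551, 402 and 4 counts with TSA, against 2, 510 and 1 with DMSO, and *Eif2ak1* with 369, 0 and 2 counts with TSA, against 279, 407 and 1 with DMSO. The substrate itself, *Eif2s1*, had 2751, 2834 and 3958 counts with TSA, against 310, 69 and 3524 with DMSO. *Ppp1r15a*, the phosphatase subunit GADD34 that reverses the phosphorylation, had 2143, 1910 and 321 counts against 1, 1104 and 6028, and both genes overlapped between the groups. *Tmbim6*, an ER membrane protein that restrains IRE1α and cell death, had 81.7 ± 50.6 CPM in TSA-treated and 222 ± 18.3 CPM in control cones (SD, n = 3 each), without overlap and with an unadjusted p of 0.0905. Ranges lay apart for 2 of the 19 above and 1 below with TSA, against 6.37% and 3.71% of all genes tested.

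Of 20 tested targets of ATF4 and CHOP, 9 had a fold change above 0 and 11 below (median -0.23), and 0 reached the unadjusted p. The most abundant were the amino acid transporter subunit *Slc3a2* (498 ± 291 CPM in TSA-treated and 409 ± 265 CPM in control cones), the asparagine synthetase *Asns* (468 ± 237 and 408 ± 221 CPM) and the stress protein *Nupr1* (257 ± 188 and 226 ± 89.2 CPM; SD, n = 3 each). Their differences were smaller than their spread. Ranges lay apart for the growth arrest gene *Gadd45a* (32.3 ± 16.8 CPM in TSA-treated and 109 ± 23.9 CPM in control cones) and the transcription factor *Cebpb* (90.6 ± 23.6 and 49.9 ± 13.7 CPM; SD, n = 3 each), with unadjusted p-values of 0.118 and 0.390 from edgeR. This is 1 of 20 above and 1 below with TSA, where 6.37% and 3.71% of all genes tested did so.

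Of 28 tested genes for the entry of proteins into the ER, 19 had a fold change above 0 and 9 below (median 0.30), and 2 were higher at the unadjusted p. *Ddost*, a subunit of the oligosaccharyltransferase that attaches N-glycans, had 2251, 1637 and 3600 counts with TSA, against 1, 17 and 0 with DMSO. *Sec61a1*, the channel of the translocon, had 690, 1107 and 393 counts with TSA, against 11, 12 and 18 with DMSO. Both genes were far higher in every TSA library than in any control. Their log2 fold changes were 8.45 (standard error 2.02) for *Ddost* and 5.47 (standard error 1.59) for *Sec61a1*, each with an adjusted p of 0.405 from edgeR. The groups also did not overlap, with TSA above, for *Ssr1*, *Ssr3*, *Ostc*, *Sec11a* and *Srp54a*, so that 7 of the 28 lay above and 0 below, where 6.37% and 3.71% of all genes tested did. The 3 most abundant genes of the list, *Dad1* (2309 ± 728 CPM in TSA-treated and 2322 ± 1428 CPM in control cones), *Srp14* (1120 ± 747 and 1389 ± 449 CPM) and *Spcs1* (1196 ± 289 and 1285 ± 443 CPM; SD, n = 3 each), overlapped between the groups.

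**Figure D4:**
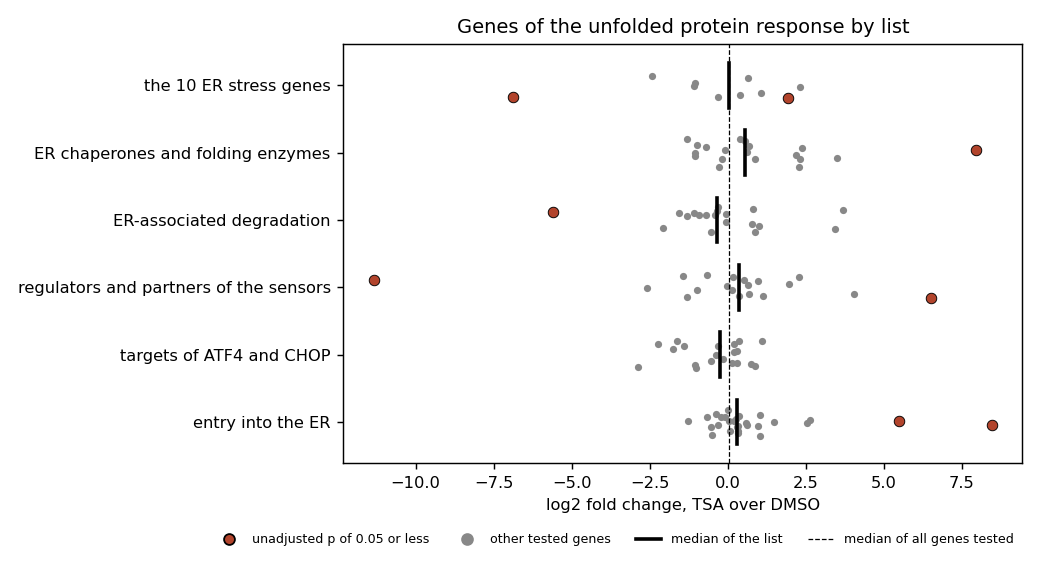
Log2 fold change (TSA over DMSO) of each tested gene in 6 sets: the 10 ER stress genes and 5 lists of the wider pathway. Red points have an unadjusted p of 0.05 or less, thick bars are medians of the sets, and the dashed line is the median of all genes tested (0.02); the fitted value of *Eif2ak2*, at 0 in every TSA library, depends on the prior count.

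The ERSE was also looked for in the listed genes, to see whether the 2 chaperones that hold it were alike in their counts to others that do. It was found in 7 more genes, so that 9 genes had 10 sites. These are written here from the CCAAT end, with the fixed ends in capitals and the 9 free bases in lower case.
Hspa5: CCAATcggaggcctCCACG
Hsp90b1, farther site: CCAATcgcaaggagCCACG
Hsp90b1, nearer site: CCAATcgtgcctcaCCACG
Calr: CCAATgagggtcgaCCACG
Canx: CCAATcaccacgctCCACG
Creld2: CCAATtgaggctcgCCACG
Derl3: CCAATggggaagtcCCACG
Dnajc3: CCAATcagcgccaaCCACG
Pdia6: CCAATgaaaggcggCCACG
Syvn1: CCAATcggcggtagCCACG
Of the 7 genes beside *Hspa5* and *Hsp90b1*, 5 were tested, and the fold change was above 0 in 4 and below 0 in 1, the calcium-binding lectin chaperone *Calr* (41.7 ± 38.1 CPM in TSA-treated and 86.1 ± 55.3 CPM in control cones, SD, n = 3 each). Their median log2 fold change was 0.68, against 0.02 over all genes tested, of which 50.9% were above 0. For the tested ER chaperones and folding enzymes, the list that holds most of these genes, it was 0.54, with 57.9% above 0. The fold changes of *Canx*, *Pdia6*, *Syvn1* and *Calr* were each smaller than their standard errors. None of the 5 genes with the element reached an unadjusted p of 0.05. *Dnajc3*, the co-chaperone P58IPK that also inhibits PERK, had 654, 970 and 311 counts with TSA, against 5, 123 and 202 with DMSO. Its groups did not overlap, but the log2 fold change of 2.29 had a standard error of 1.66. *Creld2* was read 243 times in TSA replicate 1 and no more than 3 times elsewhere, and *Derl3* had 1 count in all.

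Genes whose level followed that of *Hspa5* most closely over the 6 libraries were taken from the 1671 genes other than *Hspa5* that averaged at least 100 CPM, tested or not. By Pearson's r of log2(CPM + 1) the first 5 were *Cops8* (r = 0.97), *Tmem11* (0.97), *Gpbp1* (0.96), *Ckb* (0.94) and *Gpi1* (0.94), and 12 genes had an r above 0.9. *Tmem11*, a mitochondrial inner membrane protein, had 2843, 3387 and 2550 counts with TSA, against 1, 319 and 5 with DMSO, and its 6 libraries had the same order of CPM as for *Hspa5* (Spearman's rho = 1.0). None of the 5 encodes an ER chaperone. *Hsp90b1* was the nearest of the 10 ER stress genes, with r = 0.74 and the 56th place, and *Manf* the farthest, with r = -0.88. The 6 libraries share the 2 groups and their scaling, so these values describe the libraries and are given with no test.

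The genes lie on different chromosomes of GRCm38, apart from 2 pairs. By the GENCODE annotation *Hspa5* is at chr2:34771970-34777547, *Eif2ak3* at chr6:70844515-70905245, *Manf* at chr9:106838312-106891979 and *Dnajb9* at chr12:44205559-44210326. *Hsp90b1* (chr10:86690209-86705509) and *Ddit3* (chr10:127290774-127296288) share chromosome 10, and *Xbp1* (chr11:5520659-5525893) and *Ern1* (chr11:106394650-106487852) share chromosome 11. *Atf6* is at chr1:170704674-170867771 and *Atf4* at chr15:80255184-80257541. All 10 are protein-coding, and exons of other annotated genes overlap those of *Hsp90b1*, *Dnajb9*, *Manf*, *Eif2ak3* and *Ddit3*. Summed over the overlapping genes, this came to 14 bases for *Dnajb9*, 326 for *Manf* and 485 for *Eif2ak3*.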

How the data were processed

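RNA-seq was performed on 3 libraries of TSA-treated and 3 of DMSO-treated sorted cones. Amplification took 17 PCR cycles for cDNA and 11 for the libraries, with no molecular identifiers. The authors deposited raw counts per gene, made from single reads of 75 bases; their processing notes name GRCm38, STAR 2.5.4a and Subread 1.6.0. The strand setting is not given in the sources used here. A second deposited table holds fold changes and p-values of their own comparison and was not used.

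Groups and replicate numbers were taken from sample titles. A gene was tested if 2 or more libraries of either group exceeded 1 CPM. After TMM scaling, TSA was compared with DMSO in edgeR 4.0.16 (R 4.3.3) by its quasi-likelihood F test, and p-values were adjusted by Benjamini-Hochberg over the whole table of tested genes. Standard errors are the unshrunk log2 coefficient divided by the root of the F statistic. CPM of single genes use TMM-adjusted totals, and marker shares the totals themselves. Labels do not tie libraries to animals, so p-values measure the spread between these libraries. Exact permutation tests used log2(CPM + 1). The permutation test of the methods was not run. Exon lengths come from GENCODE, and promoters from RefSeq.

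The 10 genes and all lists were chosen with earlier results of these data known. Named genes are the 10, the 3 of highest mean CPM and any at an unadjusted p of 0.05 or less in each list, and the 5 closest to *Hspa5* in level. Genes named beyond that rule, for ranges that did not overlap or for an ERSE, were chosen after their values were seen. List symbols were matched to the table through RefSeq synonyms for *Ufd1*, *Selenok* and *Selenos*. The code was tested on simulated counts. Alternatives were other scalings, DESeq2 1.42.0, limma 3.58.1 (voom with quality weights, and trend), filters on low counts, a replicate block, leaving out each library in turn, and a pseudocount of 0.5.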

Additional observations from a re-analysis of the deposited data

How the results depend on the processing

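Over 16 alternatives *Hspa5* kept a log2 fold change of 1.49 to 2.42 and an unadjusted p of 0.05 or less in each, with adjusted p-values of 0.206 to 0.759. *Eif2ak3* kept its direction in 16 of 16 and that p in 13, with adjusted p-values of 0.0205 to 1.0, and DESeq2 gave it a log2 fold change of -7.08 (adjusted p = 0.0205). No other of the 10 genes reached that p under any alternative. By DESeq2, limma-voom and edgeR without a filter, 856, 37 and 11 genes passed an adjusted p of 0.05, against 0 by limma-trend and the other edgeR fits, and 1 of the 10 ER stress genes passed, by DESeq2. With a library left out, 1 to 2 of the 10 reached the unadjusted p (1 without TSA replicate 2, TSA replicate 3 or DMSO replicate 2) and 0 genes passed the adjusted p. Of the listed genes, 6 were at the unadjusted p, against 10 by limma-voom, 10 without a filter, 2 with filterByExpr, 2 when 3 libraries had to exceed 1 CPM, and 3 (without TSA replicate 2) to 7 with a library left out. At the adjusted p there were 6 by DESeq2 and 1 without a filter. Signs turned for *Atf6* (log2 fold change 1.52 by limma-voom) and for *Xbp1* (-0.39 without TSA replicate 1, and up to 0.77 without another library). The cause was not tested. Titles number replicates alike in both groups, but same-numbered libraries deviated from their group means with correlations of -0.01, 0.06 and 0.04 across genes and so were not treated as pairs. With the number as a block, 0 genes passed the adjusted p, 510 higher and 110 lower genes were at the unadjusted p, 2 of the 10 and 4 listed genes were at the unadjusted p, and *Atf6* had a log2 fold change of 0.18. The median log2 fold change over all genes moved to 0.58 with limma-voom, 0.36 with limma-trend, 0.32 with the replicate block, 0.15 with library totals, 0.13 with upper-quartile scaling and -0.17 without a filter, and lay between -0.13 and 0.17 with a library left out. The pooled ratios without single libraries were added after the data were seen. Over all genes, the 772 higher and 221 lower at the unadjusted p became 1722 and 1058 without a filter, 263 and 65 with filterByExpr, 255 and 57 when 3 libraries had to exceed 1 CPM, 458 and 153 by limma-trend, 312 and 273 without TSA replicate 1 and 405 and 229 without TSA replicate 2.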
